A study of Nothobranchius furzeri with 68 samples.

Results

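The genes described here act in licensing DNA for replication. They are mcm2, mcm3, mcm4, mcm5, mcm6 and mcm7, which encode the subunits of the replicative helicase, with orc1, cdc6 and gmnn. Of these, orc1 and cdc6 encode loaders of the helicase, and gmnn encodes an inhibitor of loading. They were chosen by name, with earlier results of these data known, from the liver and muscle count tables of the African turquoise killifish (Nothobranchius furzeri). They were 9 of 25065 genes in liver and of 25099 in muscle. All 9 passed the filter on low counts in both tissues. Under its own name orc1 was missing from the columns, and it was matched to LOC107395688 by the RefSeq annotation of the NfurGRZ-RIMD1 genome.

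In eukaryotes the MCM2 to MCM7 proteins form a ring that opens the DNA double helix at replication forks. In the G1 phase the origin recognition complex, of which ORC1 is a subunit, works with CDC6 and CDT1 to place inactive MCM rings on DNA, a step called licensing. Geminin, the product of gmnn, binds CDT1 and keeps DNA from being licensed again in the same cycle. These roles were worked out in yeast, frog and mammalian cells. The genes are transcribed mainly in cycling cells, and most hepatocytes of an adult mammalian liver do not cycle.

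RNA sequencing covered 41 livers in 12 groups and 27 muscles in 8 groups, with the muscles taken from 27 of the same fish. Young fish were 6.5 weeks of age and old fish 15 weeks, and each was wild type (WT) or heterozygous (Het) for aprt, whose product, adenine phosphoribosyltransferase, salvages adenine into AMP. Some had food ad libitum and the others none for 24 h. All fed samples were livers of males, so feeding can be compared only there, while fasted livers and muscles came from both sexes. There were 12 groups of 3 fish and 8 groups of 4, and the lesion in aprt is not given in the sources used here. Each library was labelled with its own fish number, and p-values measure the spread between these fish.

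Total counts ran from 19949104 to 31600126 per liver and from 24144462 to 31331150 per muscle. Levels are in CPM, that is, counts scaled to library size after TMM normalization (CPM as edgeR computes it), and changes are log2 fold changes from edgeR's quasi-likelihood test, with Benjamini-Hochberg adjustment over all genes tested. A gene was called, and is said to have risen or fallen, at an adjusted p under 0.05. Counts of members at an unadjusted p under 0.05 are given without the share of all genes at that threshold. The targeted gene, aprt, had a negative log2 fold change in Het against WT in each of the 6 liver comparisons, from -0.50 to -1.21. It was called in old fed males (adjusted p 0.00904) and old fasted males (adjusted p 0.0161), and in muscle (-0.88, adjusted p 0.0378). Summed over 10 gene columns, hepatocyte markers reached 52649 to 208189 CPM in livers and 1.05 to 3223 CPM in muscles. Skeletal muscle markers summed to 132711 to 349077 CPM in muscles and 2.45 to 270 CPM in livers.

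In liver, all 9 genes had their highest group mean in old fed WT males. For mcm2, the 3 fish of that group (4, 5 and 6) had 23.6, 35.4 and 29.8 CPM, and the mean was 29.6 ± 5.86 CPM (SD, n = 3). The lowest group mean, in young fasted Het females, was 0.841 ± 0.213 CPM (SD, n = 4). The ratio of the highest to the lowest group mean was largest for mcm4, at 154, and smallest for orc1, at 4.30. The lowest mcm4 mean was 0.233 CPM, in young fasted WT males. Counts of mcm4 went down to 5 reads in a liver, so its low end, and with it the ratio, is imprecise. Old fed Het males came next for 8 of the genes, and orc1 was the exception, with young fasted WT females second at 1.76 ± 0.353 CPM (SD, n = 3).

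The second place of old fed Het males rested on 1 fish. Fish 14 of that group had 31.0 CPM of mcm2, while its group mates had 4.83, 2.46 and 3.06 CPM. The same held for mcm7, at 39.1 CPM in fish 14 and 8.79, 4.11 and 5.39 CPM in the others, and for mcm6, at 68.6 CPM against 16.3, 5.30 and 9.67 CPM. Fish 14 was the highest of its group for all 9 genes. Over all 41 livers, the 4 highest values belonged to fish 4, 5, 6 and 14 for 8 of the 9 genes. For mcm5 an old fasted WT male, fish 20, at 29.1 CPM, was among them, just above fish 4 at 28.9 CPM. The aprt level of fish 14, 12.8 CPM, lay within the 11.1 to 13.0 CPM of its group. Summed leukocyte markers ran from 15.2 to 444 CPM in this group (median 19.4), and exocrine pancreas markers from 71.7 to 1847 CPM (median 488). Which fish held which sum is not given here, and their part in the levels of fish 14 was not tested. Because fish 14 stood apart from its group, the value without it is given too where it decided a call of a member. Where it could change only a sign, values without it are given for age in fed Het males and not for the other comparisons.

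**Figure D1:**
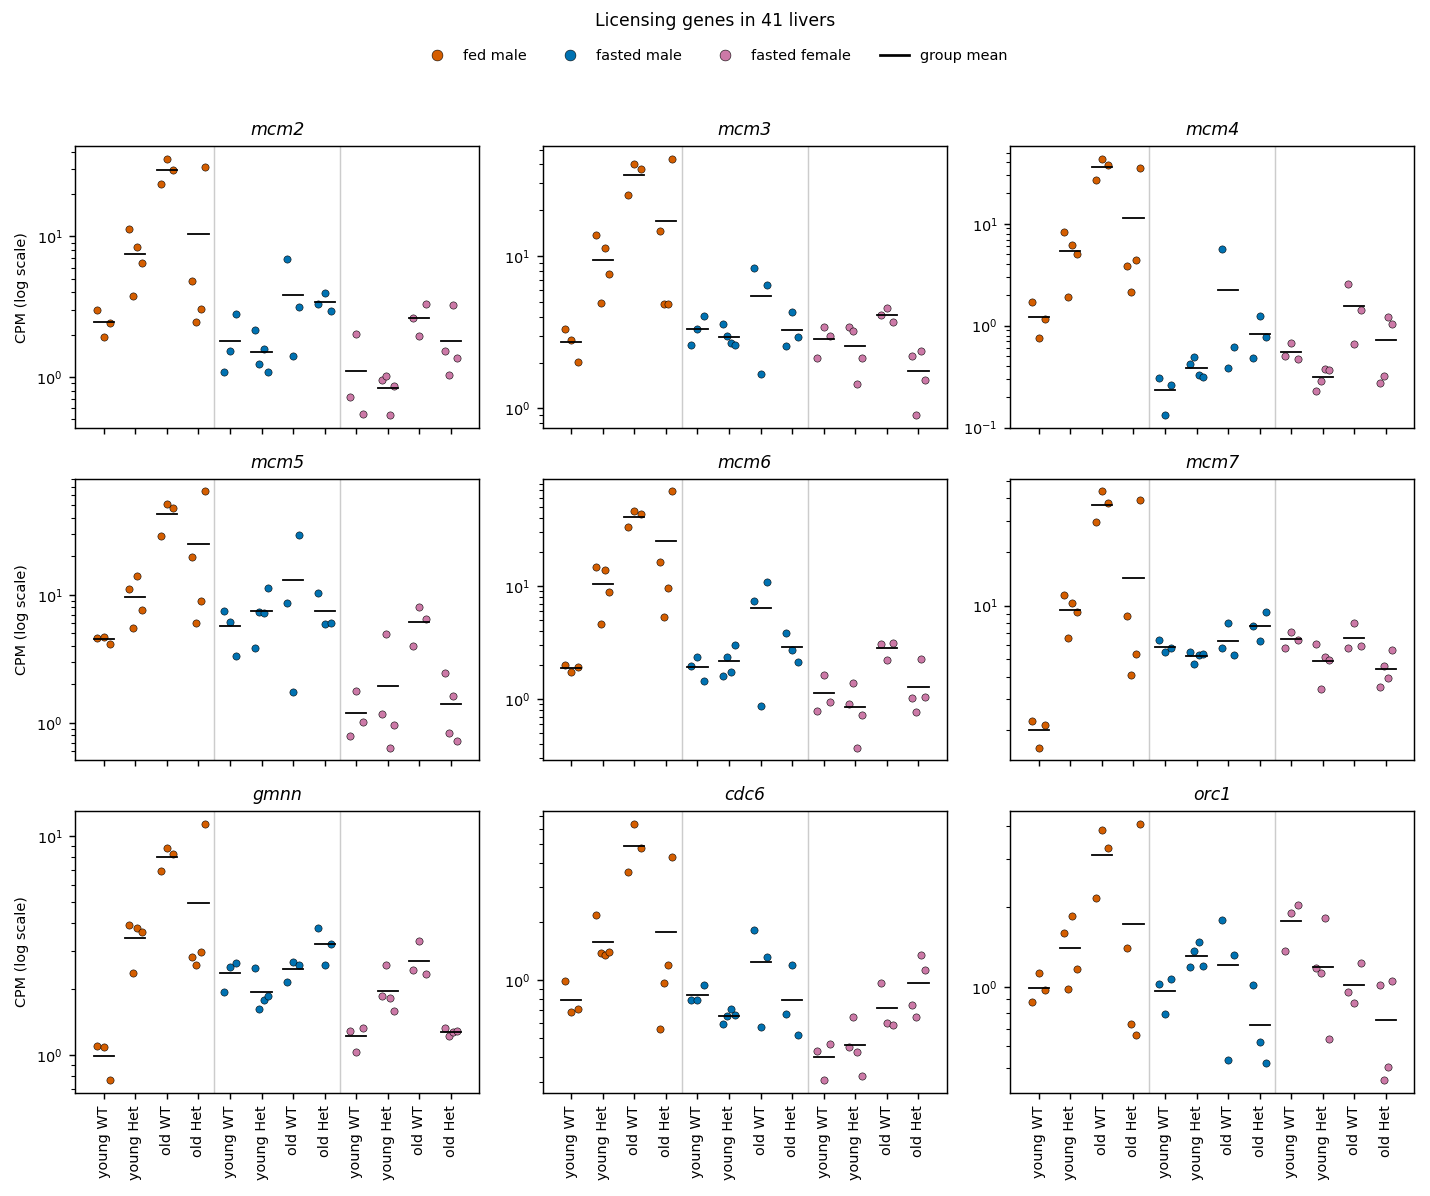
Levels of the 9 licensing genes in 41 livers, in CPM on a log axis, by group; each point is a fish and each line a group mean. The 3 old fed WT males and 1 of the 4 old fed Het males sit at the top of most panels, and mcm7 and gmnn are lowest in young fed WT males.

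Below those 4 fish the groups mostly overlapped with their neighbours in the order of means. Young fed Het males came after them for mcm2, at 11.2, 3.78, 8.36 and 6.50 CPM, and overlapped with the fasted groups below them. For mcm7 and gmnn, young fed WT males were lowest of the 12 groups. Their mcm7 levels were 2.26, 1.60 and 2.15 CPM, below each of the other 38 livers, and their gmnn levels were 1.1, 1.09 and 0.772 CPM.

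Fasting addressed how the liver of each age and genotype responds to a day without food, and it was compared in 4 pairs of male groups. In old WT males 8 of the 9 genes fell, where 15.6% of all genes tested were called lower. In old Het males 6 fell, with a background of 16.3%, and in young Het males 5 fell, with a background of 7.12%. In young WT males none was called lower, where 4.14% of genes were, and 2 rose, mcm7 and gmnn, where 6.51% were called higher. Without overlap between fed and fasted fish, 8 genes were lower in old WT males (19.8% of all genes), 3 in old Het (19.0%) and 6 in young Het males (11.8%), and in young WT males 2 were higher (16.6%) and 1 lower (16.1%). With only the fed and fasted groups of a pair in the fit, 3 genes were called in old WT males and 2 in old Het males. The shares above are those of the main fit, and shares in the smaller fits are not given here. In bulk tissue, fewer cells of a type and less RNA per cell cannot be told apart.

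Among the helicase subunits, mcm4 had the most negative fold change in each of the 4 pairs. In old WT males its level was 26.8, 43.1 and 37.6 CPM fed and 5.64, 0.381 and 0.623 CPM fasted, so that all fasted fish lay below all fed fish, and the log2 fold change was -3.97 ± 0.825 (SE, edgeR adjusted p 6.35e-04). Young Het males had 8.26, 1.93, 6.12 and 5.10 CPM fed and 0.425, 0.490, 0.327 and 0.310 CPM fasted. Their log2 fold change was -3.76 ± 0.763 (SE, adjusted p 0.00143). In young WT males mcm4 was 1.72, 0.750 and 1.17 CPM fed and 0.308, 0.132 and 0.260 CPM fasted, again without overlap, at -2.38 ± 0.929 (SE), and it was not called (adjusted p 0.0966).

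mcm2, mcm3 and mcm6 fell in both old groups and in young Het males, by 1.61 to 3.11 on the log2 scale. For old WT males mcm2 was 23.6, 35.4 and 29.8 CPM fed and 6.93, 1.41 and 3.16 CPM fasted. That was a log2 fold change of -2.93 ± 0.659 (SE, adjusted p 0.00128). In young WT males their log2 fold changes were -0.43 ± 0.647 for mcm2, 0.29 ± 0.555 for mcm3 and 0.04 ± 0.662 for mcm6 (SE), and the fed and fasted fish overlapped. In old WT males the fasted fish that stood highest for mcm2, mcm3 and mcm4 was fish 18, which also had the highest summed level of 14 leukocyte marker columns, 701 CPM, against 137 and 23.9 CPM in fish 19 and 20. Over all fed and fasted old WT males the leukocyte sum was 11.3 to 701 CPM, and fish 6, with 29.8 CPM of mcm2, had the lowest. The part of leukocytes in the residual level of fish 18 was not tested.

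mcm5 was not called for fasting in any pair. In old WT males it was 28.9, 50.8 and 48.0 CPM fed and 8.62, 1.75 and 29.1 CPM fasted, and fish 20 overlapped with the fed fish. The log2 fold change was -1.70 ± 0.72 (SE, adjusted p 0.0746), and without fish 20 it was -3.02 (adjusted p 0.00982). In old Het males mcm5 was called without fish 12 or 13 (adjusted p 0.0242 and 0.0287). Fish 20 also had the highest fasted level of mcm6, 10.8 CPM, but only 0.623 CPM of mcm4. In the RefSeq assembly the end of mcm5 overlaps hmox1a, a heme oxygenase gene. How reads in an overlap were counted is not given in the sources used here, so mcm5 values are less certain than the others. The tables list a gene as hmox1 at 0 to 3.47 CPM in livers, and whether it is the same gene is not given.

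mcm7 and gmnn were the genes called in opposite directions at the 2 ages of WT males. In young WT males mcm7 was 2.26, 1.60 and 2.15 CPM fed and 6.39, 5.52 and 5.75 CPM fasted, all higher than the fed fish. It rose by 1.55 ± 0.461 on the log2 scale (SE, adjusted p 0.0266). Among old WT males mcm7 was 29.3, 43.7 and 37.5 CPM fed and 5.76, 8.01 and 5.30 CPM fasted, and the log2 fold change was -2.53 ± 0.457 (SE, adjusted p 1.58e-04). The 6 fasted WT males of both ages thus lay between 5.30 and 8.01 CPM, while the fed fish spread from 1.60 to 43.7 CPM.

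gmnn, the licensing inhibitor, gave the same order of groups. In young WT males it was 1.1, 1.09 and 0.772 CPM fed and 1.95, 2.53 and 2.63 CPM fasted, and it rose by 1.26 ± 0.362 (SE, adjusted p 0.0213). Old WT males had 6.92, 8.85 and 8.31 CPM of gmnn fed and 2.15, 2.67 and 2.57 CPM fasted. Here the log2 fold change was -1.70 ± 0.351 (SE, adjusted p 5.97e-04). The rises in young WT males were near the threshold. Without fish 45, 47, 32 or 33 neither gene was called, and without fish 46 mcm7 was not called, with adjusted p-values of up to 0.115 and log2 fold changes of 1.12 to 1.65 over all fits that left out a fish.

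Among the loaders, cdc6 fell in 3 of the 4 pairs and orc1 in 2. cdc6 in old WT males was 3.61, 6.38 and 4.76 CPM fed and 1.80, 0.572 and 1.32 CPM fasted, without overlap, at -1.98 ± 0.467 (SE, adjusted p 0.00194). It also fell in young Het males (-1.26 ± 0.412, adjusted p 0.0388) and old Het males (-1.15 ± 0.445, adjusted p 0.0466). orc1 fell in both old groups, by 1.34 ± 0.472 in WT (SE, adjusted p 0.0312) and by 1.25 ± 0.46 in Het (SE, adjusted p 0.0358). In both young groups its log2 fold change was within 0.09 of 0, with an SE of up to 0.48. The call for orc1 in old WT males was lost without fish 5, 6, 19 or 20 (adjusted p of up to 0.17). The calls for cdc6 and mcm3 in young Het males were lost without 7 and 3 of the 8 fish in turn, with adjusted p-values of up to 0.128 and 0.0742.

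In old Het males the fed group included fish 14. Without it the log2 fold change of mcm2 for fasting went from -1.61 to -0.02 (adjusted p 0.98), that of cdc6 to -0.20 (adjusted p 0.749) and that of orc1 to -0.36 (adjusted p 0.553). The calls for mcm3, mcm4 and mcm6 were kept in each fit without 1 fish. For mcm5, mcm7 and gmnn, not called in the main fit, values without fish 14 are not given here. The calls for mcm2, cdc6 and orc1 were also lost without some of the fasted fish 25, 26 and 27, with adjusted p-values of 0.074 to 0.19. Without fish 12 all 9 genes were called, and the share of all genes called in that fit is not given here. Hepatocyte markers summed to 118900 to 133305 CPM in the fasted and 162294 to 208189 CPM in the fed old Het males, and their part was not tested.

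**Figure D2:**
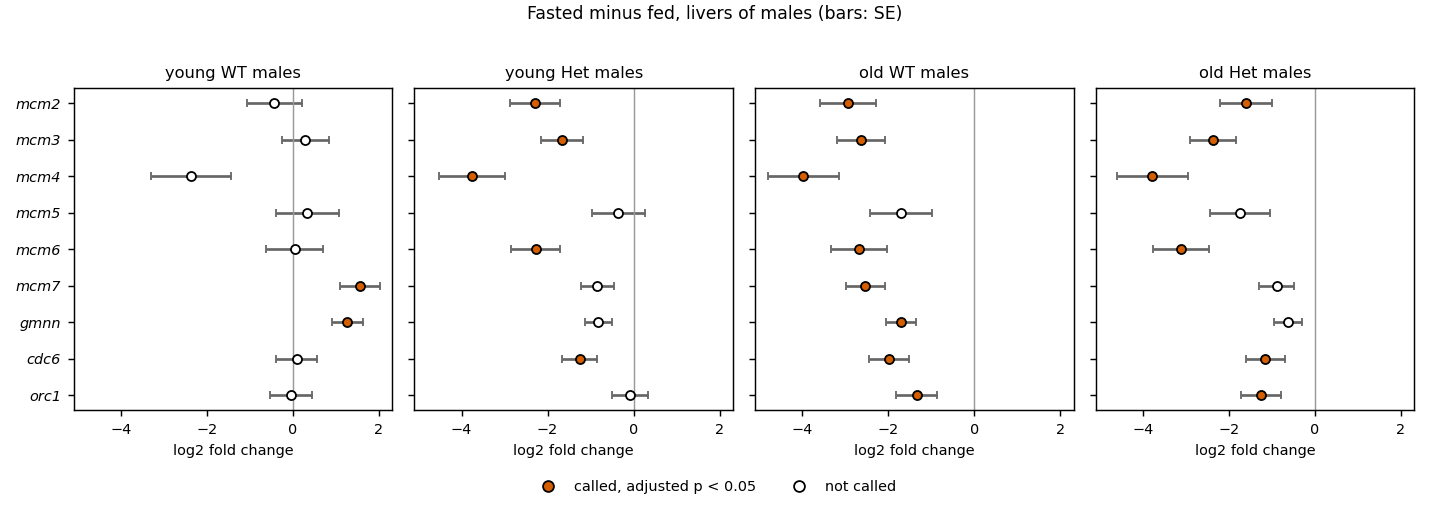
Log2 fold change of each licensing gene for fasting (fasted minus fed) in livers of males, by age and genotype; points are estimates, bars are SE and filled points were called at an adjusted p under 0.05. Of 9 genes, 8 fell in old WT males, and in young WT males mcm7 and gmnn rose.

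Whether the response differed with age was tested directly. In WT males the fasting response of old fish minus that of young fish was -4.09 ± 0.647 for mcm7 on the log2 scale (SE, edgeR adjusted p 0.00722) and -2.97 ± 0.504 for gmnn (SE, adjusted p 0.0126). These were 2 of the 3 genes called in either direction among 17406, or 0.0172%. All 9 estimates were negative, with a median of -2.50. The call for mcm7 was kept in each of the 12 fits without 1 fish, and gmnn lost its call without fish 5, 33 or 47 (adjusted p of up to 0.0585). In Het males no member was called by edgeR for this difference, where 1.15% of all genes were, with 0 at an unadjusted p under 0.05 and 0 by DESeq2.

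The response also differed between genotypes in young males. The response of Het minus that of WT was -2.40 ± 0.599 for mcm7 (SE, adjusted p 0.0345) and -2.08 ± 0.472 for gmnn (SE, adjusted p 0.0169), where 1.53% of all genes were called in either direction. For mcm7 the call was lost in 10 of the 14 fits without 1 fish (adjusted p of up to 0.107), and for gmnn in 3 of 14, without fish 47, 32 or 33 (up to 0.0757). Among old males no member was called, where 1.25% of all genes were (edgeR; 2 at an unadjusted p under 0.05, 0 by DESeq2). Without fish 14, mcm7 was called at 2.88 (adjusted p 2.36e-05), gmnn at 1.91 (0.00116), mcm2 at 2.91 (0.0213) and cdc6 at 1.78 (0.0479). These are responses of Het minus those of WT. A positive value thus means a less negative or a positive response in Het, not a higher level.

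Age was compared within each genotype and feeding state. In fed WT males all 9 genes rose with age and none of the old fish overlapped with a young fish, where 6.13% of all genes were called higher and 20.9% were higher without overlap. The largest change was in mcm4, 1.72, 0.750 and 1.17 CPM in young fish and 26.8, 43.1 and 37.6 CPM in old fish. Its log2 fold change was 4.88 ± 0.872 (SE, adjusted p 7.49e-04). mcm6 rose by 4.43 ± 0.715 (SE, adjusted p 3.94e-04) and mcm7 by 4.20 ± 0.498 (SE, adjusted p 1.96e-05). The remaining subunit genes rose by 3.24 to 3.66, gmnn by 3.02 ± 0.375 (SE, adjusted p 2.64e-05), cdc6 by 2.63 ± 0.483 (SE) and orc1 by 1.64 ± 0.479 (SE, adjusted p 0.0276). Without fish 5, 6, 45, 46 or 47 orc1 was not called (adjusted p 0.0561 to 0.0975).

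The summed leukocyte markers in these old fed WT males were 475, 117 and 11.3 CPM, and the skeletal muscle markers were 8.89, 270 and 2.45 CPM. Fish 6 had the lowest sum of both lists over the 3, and its levels of mcm4 (37.6 CPM) and mcm7 (37.5 CPM) lay between those of the other two. In young fed WT males the leukocyte sums were 135, 16.7 and 14.6 CPM. The lists that separated the 2 ages were those of the exocrine pancreas, with 3 genes matched, at 96.5 to 491 CPM in old and 1588 to 1710 CPM in young fish, and erythroid cells, at 40.2 to 66.7 and 77 to 84.3 CPM. Their part in the differences with age was not tested. Germ cell markers summed to at most 5.05 CPM in all livers.

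In fed Het males 0.0% of all genes were called with age by edgeR and no member by DESeq2, and 2 members had an unadjusted p under 0.05. With fish 14 all 9 estimates were positive, from 0.17 for cdc6 to 1.38 ± 0.622 for mcm5 (SE). Without fish 14 the estimates turned negative for all but mcm5, from -0.02 ± 0.47 for mcm6 to -1.11 ± 0.436 for mcm2 (SE, adjusted p 0.42). mcm5 was then at 0.28 ± 0.591 (SE). In the fit without any one of these fish the count stayed at 0. Fasted fish gave no member call with age either, where 0.5% of all genes were called in WT males, 8.31% in Het males and 5.95% in females. In fasted WT males the largest estimate was 3.29 ± 0.916 for mcm4 (SE, adjusted p 0.0726), with 2 members at an unadjusted p under 0.05 and 1 called by DESeq2. The old WT fish had 5.64, 0.381 and 0.623 CPM of mcm4 and the young fish 0.308, 0.132 and 0.260 CPM, and the groups did not overlap, as for 7.02% of all genes in this direction. Without fish 19 or 20 mcm4 was called, at 3.77 (adjusted p 0.0407) and 3.69 (0.0288). Fasted Het males and fasted females had 1 and 4 members at an unadjusted p under 0.05, and DESeq2 called 0 in both.

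Genotype was compared with age and feeding held. In young fed males 4 genes were higher in Het than in WT, where 2.78% of all genes were called higher. mcm7 was 11.4, 6.62, 10.3 and 9.25 CPM in Het and 2.26, 1.60 and 2.15 CPM in WT, a log2 fold change of 2.22 ± 0.45 (SE, adjusted p 0.00213). gmnn was 3.93, 2.37, 3.79 and 3.65 CPM in Het and 1.1, 1.09 and 0.772 CPM in WT, at 1.80 ± 0.35 (SE, adjusted p 0.00152). mcm6 rose by 2.48 ± 0.646 (SE, adjusted p 0.0161) and mcm3 by 1.80 ± 0.538 (SE, adjusted p 0.0414). The groups did not overlap for 8 genes, a pattern that 14.8% of all genes showed in this direction. Without fish 45, 46 or 47 mcm6 and mcm3 were not called, and mcm3 was also lost without fish 52, 54 or 55 (adjusted p of up to 0.174). With only these 2 groups in the fit, 8 genes were called, and the share of all genes in that fit is not given here. The leukocyte sums were 14.7 to 52.4 CPM in Het and 14.6 to 135 CPM in WT. Hepatocyte markers were higher in Het without overlap, at 175091 to 208114 against 145505 to 156387 CPM, and skeletal muscle markers were lower, at 3.04 to 6.77 against 8.51 to 19.8 CPM. Their part in the genotype difference was not tested.

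In old fed males the sign was the opposite, and the estimates for all 9 genes were negative. Hepatocyte markers were again higher in Het without overlap, at 162294 to 208189 against 130510 to 158174 CPM, and their part was not tested. cdc6 was 0.559, 0.961, 1.20 and 4.31 CPM in Het and 3.61, 6.38 and 4.76 CPM in WT, at -1.48 ± 0.419 (SE, adjusted p 0.0277). mcm7 fell by 1.36 ± 0.4 (SE, adjusted p 0.0334). These were the 2 calls, where 3.88% of all genes were called lower. With only these 2 groups in the fit there were 0, and the 3.88% belongs to the main fit. The count also turned on single fish. Without fish 14 there were 8 calls, and mcm5 was not called. The share of all genes called lower without fish 14 is given below with the pathway lists. The calls gained were mcm4 at -3.37 (adjusted p 0.00139), mcm2 at -3.10 (2.25e-04), mcm3 at -2.09 (0.00274), mcm6 at -1.98 (0.0111), orc1 at -1.74 (0.00392) and gmnn at -1.53 (8.16e-05). Without fish 5, 6, 11, 12 or 13 there were 0 calls, and over those fits mcm7 was at -1.05 to -1.34 and cdc6 at -1.18 to -1.5.

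The change of the genotype difference with age in fed males was tested as an interaction. It was -3.58 ± 0.6 for mcm7 (SE, adjusted p 0.00998) and -2.49 ± 0.468 for gmnn (SE, adjusted p 0.0207), with 0.276% of all genes called in either direction. All 9 estimates were negative, and 8 members had an unadjusted p under 0.05. DESeq2 called 7, and edgeR with only the 4 groups of fed males in the fit called 0. The 0.276% belongs to the main fit at the adjusted threshold. Shares of all genes are not given for the other fits or at an unadjusted p under 0.05. Leaving out fish 14 gave 8 calls, leaving out fish 53 gave 4 and leaving out fish 46 gave 0 (mcm7 at -3.45, adjusted p 0.0657). The calls gained without fish 14 were mcm2 (-4.71), mcm3 (-3.88), mcm4 (-5.50), mcm6 (-4.45), cdc6 (-3.415) and orc1 (-2.23), with adjusted p-values of up to 0.0124. gmnn was also lost without fish 5, 12, 45, 47 or 52 (adjusted p of up to 0.0771). This comparison shares its fed fish with the fasting and age comparisons above, so the high and low fed groups enter all of them.

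**Figure D3:**
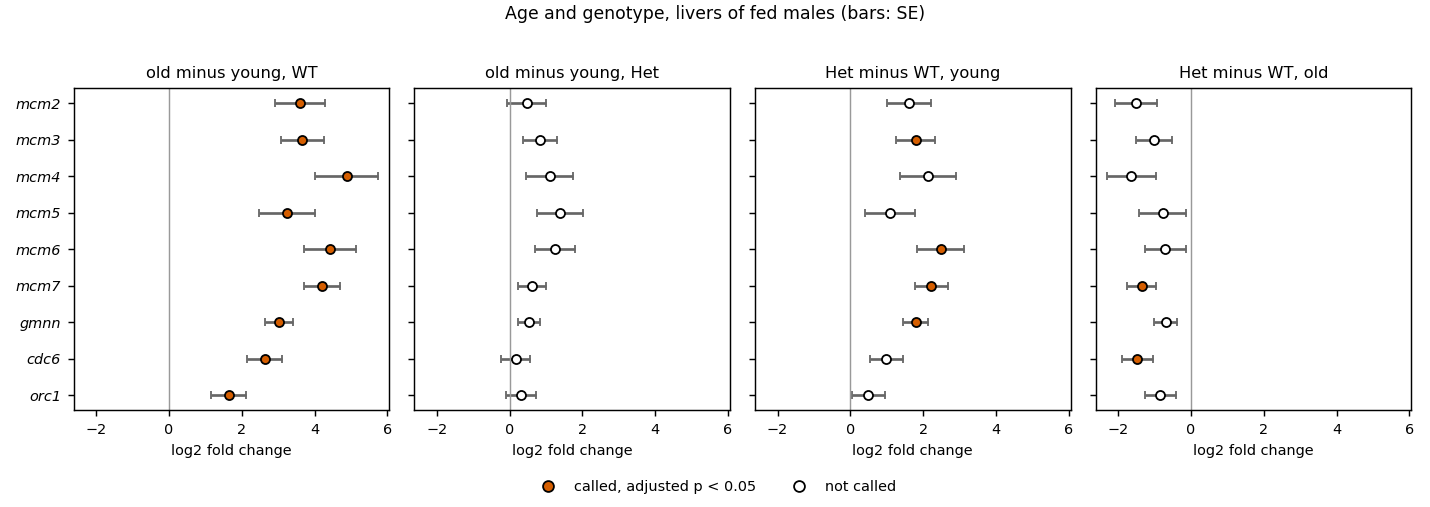
Log2 fold change of each licensing gene with age (old minus young) and with genotype (Het minus WT) in livers of fed males; points are estimates, bars are SE and filled points were called at an adjusted p under 0.05. All 9 genes rose with age in WT and none was called in Het, and the genotype estimates are positive in young and negative in old fish.

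In fasted livers genotype gave no call. edgeR called 0 members among young males (0 with an unadjusted p under 0.05), old males (0), young females (0) and old females (3). DESeq2 called 0, 0, 0 and 1. Of all genes 0.0%, 0.758%, 0.0% and 2.03% were called. In old females 4 members were lower in Het without overlap, as were 5.48% of all genes. In old females mcm5 was 2.47, 0.836, 1.61 and 0.727 CPM in Het and 3.95, 8.07 and 6.50 CPM in WT, without overlap, at -2.06 ± 0.728 (SE, adjusted p 0.13). gmnn was 1.33, 1.22, 1.28 and 1.29 CPM in Het and 2.45, 3.33 and 2.34 CPM in WT, also without overlap, at -1.07 ± 0.34 (SE, adjusted p 0.091).

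Between the sexes, mcm5 was called at both ages in fasted livers, and its values are less certain given the overlap with hmox1a. Of the 9 genes 1 was called lower in young and 2 in old females, near the shares of all genes (12.5% and 18.3%). In young fish it ran from 0.641 to 4.94 CPM in 7 females (median 1.02) and from 3.35 to 11.4 CPM in 7 males (median 7.24). The log2 fold change of females against males was -2.07 ± 0.53 (SE, adjusted p 0.00383), with 12.5% of all genes called lower, and the call was kept in each of 14 fits without 1 fish. Only fish 35, at 4.94 CPM, reached into the male range. In old fish mcm5 ran from 0.727 to 8.07 CPM in 7 females and from 1.75 to 29.1 CPM in 6 males, at -1.71 ± 0.513 (SE, adjusted p 0.0115), and the groups overlapped. mcm6 was lower too, at -1.17 ± 0.457 (SE, adjusted p 0.0479), with 18.3% of all genes called lower. Without fish 20 neither was called, with mcm5 at -1.03 (adjusted p 0.111) and mcm6 at -0.85 (adjusted p 0.174), and mcm6 was lost in 10 of 13 such fits. Hepatocyte markers summed to less in the fasted females, at 52649 to 101351 CPM, than in most fasted males, at 95791 to 190057 CPM, and vtg3, a yolk protein gene, took 17463 to 101981 CPM in females. Their part in the sex difference was not tested.

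The rest of the replication programme was read from lists of genes named for their role, without the members. Like the members, the lists were chosen with earlier results of these data known. In old WT males fasting lowered 6 of 7 tested origin genes, 13 of 15 genes of helicase activation, 21 of 22 genes of the fork and DNA synthesis, 7 of 8 genes of replication-coupled chromatin and 18 of 19 genes of mitosis. The list medians were -1.85, -2.02, -2.23, -2.28 and -2.33, and the median of all genes tested was 0.08. Among the called genes were cdt1 (-1.98), the partner of CDC6 in loading, gins3 (-3.12), which encodes part of the active helicase, and pole (-3.71), the catalytic subunit of DNA polymerase epsilon. timeless (-3.58) and tipin (-3.48), which encode fork protection proteins, and pcna (-3.39), the sliding clamp, fell as well. Of 29 genes of G1-S control 17 fell, with e2f7 at -4.45 and e2f8 at -3.70, which encode E2F repressors, and 2 rose, ccnd1 (1.64) and cdkn1ba (1.04), which encode a D cyclin and a cyclin-dependent kinase inhibitor. Those 2 and, below, rbl2 and mcmbp were named after their values were seen. With the nucleotide supply genes and mcm8 and mcm9, 87 of 107 list genes fell, where 15.6% of all genes did.

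With age in fed WT males 85 of the same 107 genes rose, where 6.13% of all genes did, and 1 fell, rbl2 (-1.01), a retinoblastoma family gene. The rises included pole (5.73), pole2 (5.66), timeless (5.36), dbf4b (5.48) and gins4 (5.21), and the proliferation marker mki67 (4.06). In fed Het males 0 were called with age, with or without fish 14. The list medians were 0.28 to 1.5 with that fish and -0.33 to 0.54 without it, and over the 107 genes the median went from 0.72 to -0.06.

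In young WT males fasting lowered 7 of the 107 list genes and raised 4, near the shares over all genes (4.14% lower and 6.51% higher). The mitosis list, with 19 genes tested, held 4 of those lower: plk1 (-2.61), ccnb1 (-2.37), aurka (-2.02) and aurkb (-1.98), which encode mitotic kinases and cyclin B1. Its median was -1.56, and the median of all genes tested was -0.02. The medians of the other lists were also negative, from -0.07 for mcm8 and mcm9 to -0.73 for replication-coupled chromatin. No gene of the fork list was called. mcmbp, whose product binds MCM subunits, rose by 0.86, and it also rose in young Het (0.76) and old Het males (0.66), while in old WT males its estimate was 0.06. In young Het males fasting lowered 39 of the 107 genes, where 7.12% of all genes were called lower, with pole2 at -4.08 and timeless at -4.15.

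Genotype in young fed males raised 13 of the 107 genes, where 2.78% of all genes were called higher. It lowered 2, and the share of all genes called lower is not given here. The rises included pole (3.17), timeless (3.30), uhrf1 (2.62), a maintenance methylation factor, and cdt1 (1.97). No mitosis gene was called there. In old fed males 10 of the 107 (9.35%) were lower in Het, where 3.88% of all genes were, and 6 of the 10 were in mitosis, with cdc20 at -2.53 and ccnb1 at -2.21. mcm10 (-1.67) and cdc7 (-0.99), of helicase activation, were also called. Without fish 14 the count was 79 (73.8%), where 8.08% of all genes were called lower, with cdc20 at -2.84 and mcm10 at -2.76. Without fish 5 or 11 it was 0, and without fish 6, 12 or 13 it was 3, 0 and 2, with 1 gene higher without fish 12.

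Among the genes whose levels ran closest to the mean of the standardized levels of mcm2 to mcm7 over the 41 livers were LOC107384410, which has no other name in the RefSeq table (Pearson r 0.952), clspn (0.949), bub1ba (0.937) and ankle1 (0.930). gins2 (0.928), mybl2 (0.927), ubr7 (0.926), chaf1a (0.926) and lig1 (0.925) followed. Of the members outside the helicase, cdc6 reached 0.872, gmnn 0.865 and orc1 0.646. The 4 livers with high levels enter all of these values, which are a description of these libraries.

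In muscle, where all fish were fasted, the ratio of the highest to the lowest library was 4.54 (cdc6) to 50.7 (mcm4). Over all 41 livers, fed and fasted, it was 9.07 (orc1) to 327 (mcm4). These are unlike sets of fish, since the highest livers were mostly those of old fed males. Within fasted livers mcm4 ran from 0.132 to 5.64 CPM and orc1 from 0.45 to 2.03 CPM. In muscle mcm2 ran from 0.213 to 2.46 CPM over 27 muscles (median 1.08) and mcm4 from 0.0306 to 1.55 CPM, on counts of 1 to 53 reads. mcm7 was at 1.69 to 17.7 CPM (median 6.70, counts of 42 to 606). For age in males, age in females, sex and genotype, edgeR called 0 of the 9 genes, with 2, 2, 3 and 4 at an unadjusted p under 0.05 and 0, 1, 0 and 1 by DESeq2. Over all genes 10.1%, 0.311%, 3.2% and 0.0794% were called in either direction. No fit without 1 fish gave a call. Over the 27 muscles the genes closest to the mean of mcm2 to mcm7 were bbs9 (Pearson r 0.749), rpa1 (0.718) and ncapd3 (0.714), and mcm7 itself reached only 0.183.

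The estimates for genotype in muscle were negative for 7 genes. mcm2 ran from 0.924 to 2.46 CPM in WT and from 0.213 to 1.88 CPM in Het, and its log2 fold change was -0.80 ± 0.193 (SE, adjusted p 0.117). mcm6 had -0.69 ± 0.196 (SE, adjusted p 0.185). orc1 in females had the largest estimate for age, -1.18 ± 0.307 (SE, adjusted p 0.104). It was 0.935, 1.75, 1.65 and 1.56 CPM in young Het, 1.95, 2.54 and 1.90 CPM in young WT, 1.24, 0.685, 0.552 and 0.675 CPM in old Het and 1.11, 0.524 and 0.657 CPM in old WT females. Young Het fish 34, at 0.935 CPM, was the only young fish that overlapped with the old fish.

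Between the tissues of the same fasted fish, 8 of the 9 genes were called, where 86.0% of all genes were. This fit had no term for the fish, so it did not use the pairing. With the fish as a block, no call changed. The liver was higher for gmnn (1.62 ± 0.108, adjusted p 4.85e-18), mcm5 (1.39 ± 0.221), mcm3 (1.07 ± 0.16) and mcm6 (0.64 ± 0.174). The muscle was higher for cdc6 (-0.97 ± 0.141), mcm7 (-0.81 ± 0.151), orc1 (-0.67 ± 0.148) and mcm4 (-0.59 ± 0.252, adjusted p 0.0286; all SE). mcm2 was not called (0.31 ± 0.159, adjusted p 0.0635), and it was called without fish 24 or 35 (adjusted p 0.0285 and 0.0465). Tissue cannot be told apart from library kit and instrument, which differed between liver and muscle.

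The subunits of the helicase ring did not keep a fixed proportion of counts. In fed livers mcm7 made up 11.9% to 24.2% of the counts of mcm2 to mcm7. In fasted livers it made up 9.56% to 60.4%, with group medians from 13.5% in old WT males to 51.9% in young WT females. The fed livers were all of males, and in fasted males the group medians were 13.5% to 32.1%. In muscle, where the library kit differed, the group medians were 40.8% to 75.6%. Among livers of males, old fasted WT fish held both ends of the range, with 56.8% in fish 19 and 9.56% in fish 20. Their mcm7 levels were 8.01 and 5.30 CPM. Their levels of mcm5, which enters the sum and is less certain, were 1.75 and 29.1 CPM. Counts are not scaled for transcript length, so a share compares libraries and not subunits.

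**Figure D4:**
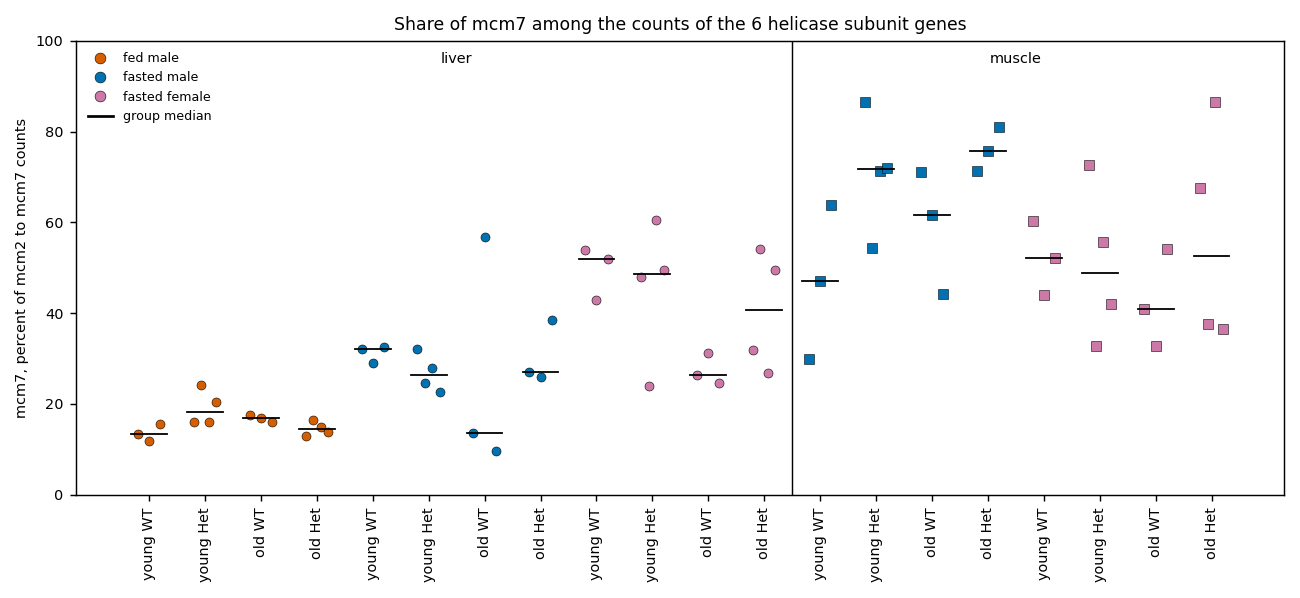
Counts of mcm7 as a percentage of the summed counts of mcm2 to mcm7, by group in liver (circles) and muscle (squares); each point is a library and each line a group median. Fed livers, all of males, lie between 11.9% and 24.2%, and most fasted livers, of both sexes, and all muscles lie higher. Library kits differed between liver and muscle.

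Across the 27 fish with both tissues, the liver and muscle levels of orc1 were correlated (log2 CPM, Pearson r 0.687, permutation p 8e-05; Spearman rho 0.731, permutation p 4e-05). This was the highest of 9 such relations, and its adjusted p was 0.00072 for r and 0.00036 for rho. Without the 2 livers farthest from the median r was 0.640, and after subtraction of group means it was 0.478. With fish permuted only within the 8 groups of age, sex and genotype, that value did not pass (permutation p 0.0904, adjusted p 0.407), so the relation was not shown within groups. For mcm5 r was 0.416 (permutation p 0.0299, adjusted p 0.135) and rho 0.490 (permutation p 0.0107, adjusted p 0.0481), and without the 2 farthest livers r was 0.335. Within groups it was 0.389 (permutation p 0.07, adjusted p 0.407). For the other 7 genes no relation passed the threshold after adjustment, with r between -0.07 and 0.31.

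**Figure D5:**
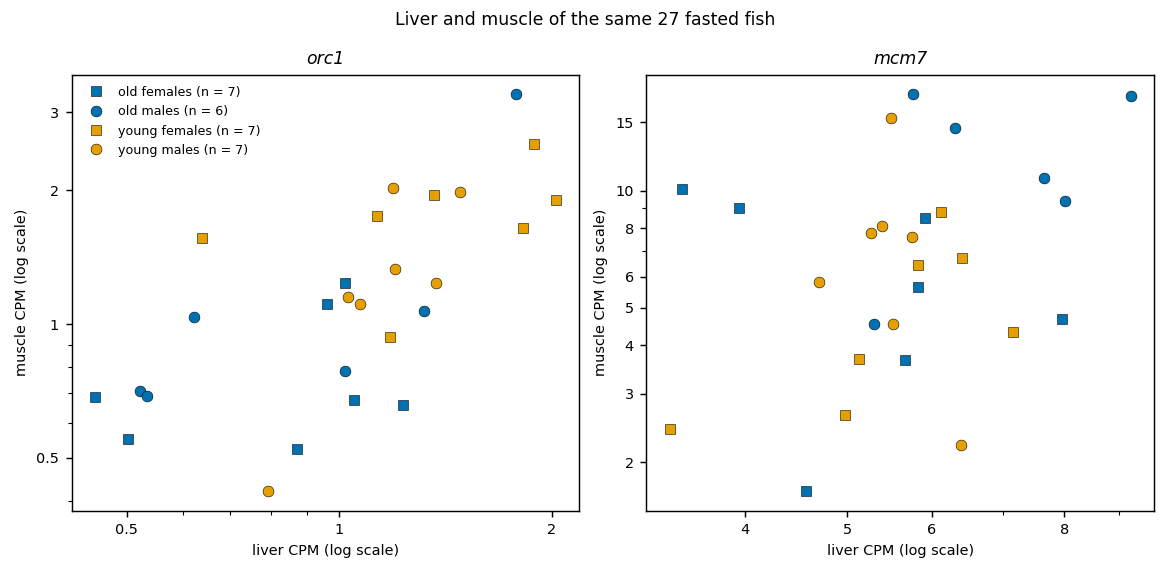
Liver against muscle level of orc1 and of mcm7 in the same 27 fasted fish, in CPM on log axes; each point is a fish, with colour for age and shape for sex. For orc1 the points run along a diagonal (r 0.687 over all fish, 0.478 within groups), and for mcm7 they scatter (r 0.306).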

How the data were processed

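Per the labels' protocols, muscle libraries were made with the KAPA Stranded mRNA-Seq kit and liver libraries with the KAPA mRNA HyperPrep kit, and they were run on different sequencers. Per the submitters' processing notes, FastQC 0.11.8, Trim Galore 0.6.4, cutadapt 3.4 and STAR 2.7.6a were used. The counting tool, strand setting, genome build and annotation are not given in the sources used here. The authors deposited raw counts per gene and fish, 1 table per tissue.

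Counts were tested with edgeR 4.0.16 (R 4.3.3, limma 3.58.1): TMM scaling, filterByExpr (minimum count 10, minimum total 15), 1 mean per group over all libraries of a tissue, quasi-likelihood F tests of contrasts and Benjamini-Hochberg adjustment over 17406 genes in liver, 16380 in muscle and 18485 in both. SE is the log2 fold change divided by the square root of F. For log2 CPM the prior count was 2. The code was tested on simulated data. Correlations used 100000 permutations (SciPy 1.17.1), over all fish and, added after seeing the data, within groups. Alternatives were RLE scaling, DESeq2 1.42.0, no filter, only the groups compared, leaving out each fish and, between tissues, the fish as a block. The series' design text says both tissues came from the same fish, so fish numbers pair the tissues. In other comparisons no fish number is shared between groups.

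Of 84 pairs of libraries within groups, none agreed within sampling noise (chi-square per degree of freedom at least 16.22). The members and lists were chosen with earlier results of these data known. From each list, up to 4 called genes with the largest changes could be named, and the 10 genes most alike in each tissue. 1 gene among those most alike in liver is not reported here. Of 14280 LOC identifiers, 5241 were given a symbol. Total counts per library limit the precision of genes with few reads.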

Additional observations from a re-analysis of the deposited data

Results flagged for a closer look

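Of 72 tests of the highest or lowest fish in groups of 4, 8 stood far from the rest by Dixon's criterion, where chance gives about 1 in 20. In old fed Het livers fish 14 was high for mcm2 (31.0 CPM), mcm4 (35.4 CPM), mcm7 (39.1 CPM), gmnn (11.4 CPM) and cdc6 (4.31 CPM). These are not separate events, since they come from 1 library. In young fasted Het female livers fish 35 was high for mcm5, at 4.94 CPM. In young fed Het livers fish 52 was high for cdc6, at 2.15 CPM. In young fasted Het female muscles fish 36 was low for gmnn, at 0.165 CPM.

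Differences between groups under the same contrast, each tested as an interaction with edgeR, concerned mcm7 and gmnn. The fasting response of WT livers differed between ages by -4.09 for mcm7 and -2.97 for gmnn (log2, adjusted p 0.00722 and 0.0126). In young livers it differed between genotypes by -2.40 for mcm7 and -2.08 for gmnn (adjusted p 0.0345 and 0.0169). The genotype difference of fed livers differed between ages by -3.58 for mcm7 and -2.49 for gmnn (adjusted p 0.00998 and 0.0207). The 3 tests share the young fed WT fish.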

How the results depend on the processing

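No fold change of a called gene reversed under any alternative run, with 676 values on the same side of the threshold and 110 no longer past it. With only the groups compared in the fit, the members called were 3 for fasting in old WT and 2 in old Het males, 5 for fasting by genotype in young males, 8 for genotype in young fed and 0 in old fed males, 0 for genotype by age, 4 for sex in young fish and 1 for age in female muscle. DESeq2 called 1 for age in fasted WT males, 1 for genotype in old females, 7 for genotype by age, and 1 each for age in females and genotype in muscle. Without a filter, sex in old fish gave 1. Shares of all genes called are given for the main fits and, unless stated, not for the alternatives or the fits without 1 fish. The causes were not tested.

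Leaving out each fish in turn, the members called ranged over 0 to 2 for fasting in young WT, 3 to 6 in young Het, 7 to 8 in old WT and 3 to 9 in old Het males. They ranged over 1 to 2 for fasting by age in WT, 0 to 2 for fasting by genotype in young and 0 to 4 in old males, 8 to 9 for age in fed WT and 0 to 1 in fasted WT males. For genotype they ranged over 2 to 4 in young fed and 0 to 8 in old fed males, for genotype by age 0 to 8, for sex in old fish 0 to 2 and between tissues 8 to 9. In alternatives chosen after seeing the data, the pathway list genes called without each old fed male ranged over 0 to 79 for genotype in old fed males (79 without fish 14), 77 to 83 for age in fed WT males and 76 to 90 for fasting in old WT males. With the fish as a replicate block, 8 members were called between tissues, and the block changed no call. RLE scaling moved the median of all genes by at most 0.0632, and it changed the sign of 1 member that was near 0, mcm5 for age in fasted Het males (-0.01 to 0.01). Low counts in muscle, down to 1 read for mcm4, limit what could be seen there.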
